A study of Mus musculus with 36 samples.

Results

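The genes described here are 10 markers of cardiac fibroblasts and of the microfibrils they lay down: Mfap4, Mfap5, Ltbp2, Cilp, Mgp, Dcn, Lum, Pi16, Clec3b and Pdgfra. They were taken by gene symbol from the array's annotation, and each gene is represented by its brightest probe set over 36 arrays. The 10 genes have 15 probe sets and are 10 of 12626 genes tested. Fibroblasts are the connective tissue cells of the heart, and they make most of its interstitial matrix. Microfibrils are thin extracellular threads built on fibrillins, which carry elastin, bind other glycoproteins and hold latent TGF-beta through the LTBP family. Small leucine-rich proteoglycans such as decorin and lumican bind to collagen fibrils and govern their width and spacing.

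RNA from the left ventricle of mouse hearts was hybridised to Affymetrix Mouse Genome 430 2.0 arrays, 1 sample per array. The transgenic hearts came from C57 black mice that carried a pair of transgenes under the alpha myosin heavy chain promoter. The first was the tamoxifen-activated recombinase Mer-Cre-Mer, and the other a floxed cassette for HRas-v12, for MKK3bE or for MKK7D. The promoter acts in heart muscle cells, so the transgenes are not directed to the fibroblasts whose markers are described here. HRas-v12 is an active Ras, MKK3bE an active kinase upstream of p38, and MKK7D an active kinase upstream of JNK. The controls were littermates without transgenes, and all mice received tamoxifen by intraperitoneal injection at 20 mg/kg on 3 days from 12 weeks of age. Early hearts were taken 4 to 7 days after the first injection and late hearts at 2 to 4 weeks. For HRas-v12 there were 5 early arrays (2 female, 3 male) and 6 late ones (3 of each sex). For MKK3bE there were 2 early arrays, both female, and 5 late ones (2 female, 3 male). The MKK7D line had 3 female arrays at each time. The references were 3 male and 3 female shared controls, which carry no time in the titles and serve the HRas-v12 and MKK3bE lines, and 3 female controls of the MKK7D line at each time. The labels name no control with the recombinase alone, so an effect of the recombinase and one of the transgene cannot be told apart. The tissue was not sorted, and in such bulk RNA more fibroblasts and more RNA per fibroblast cannot be told apart.

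Some arrays went against their titles in marker transcripts. The Esr1 probe set, which can also read the estrogen receptor part of Mer-Cre-Mer, gave signals of 12437 to 155949 in 21 of 24 transgenic arrays, against 294 to 7943 in the shared controls. It read 688 in HRas-v12 female early replicate 3, 2915 in HRas-v12 male late replicate 1 and 1327 in HRas-v12 male late replicate 3. It read 106402 and 91291 in replicates 8 and 9 of the late MKK7D controls, against 953 in replicate 10. In replicate 1 of the early MKK7D controls, titled female, the Y-linked gene Eif2s3y read 6018, against 5.3 and 11.8 in the other 2 early MKK7D controls. All arrays were kept under their titles, and calls that change without these 6 arrays are also given below. Fibroblast RNA was looked at through 15 further resident fibroblast markers. All 15 passed the filter on dim probe sets, and no array had any of them under a signal of 937. In unsorted tissue such signals do not tell which cells made the members' RNA. In early HRas-v12 hearts 5 of the 15 were called higher and 4 lower. Cell types that could share the members' RNA were looked at as well, and their lists are given after the members.

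Promoter sequences are shown for Cilp and Ltbp2, whose values changed most among the 4 members with an entry in the RefSeq promoter table (build GRCm38.p6). An entry is 300 bases around the start site, 5′ to 3′ on the strand of the gene, most of them before it. Capitals mark the letters TATATAA in Cilp (chr9:65264930-65265229, plus strand), whose first base lies 30 bases before the start site. In Ltbp2 (chr12:84876442-84876741, minus strand) they mark 2 matches to the GC box GGGCGG on either strand.
Cilp: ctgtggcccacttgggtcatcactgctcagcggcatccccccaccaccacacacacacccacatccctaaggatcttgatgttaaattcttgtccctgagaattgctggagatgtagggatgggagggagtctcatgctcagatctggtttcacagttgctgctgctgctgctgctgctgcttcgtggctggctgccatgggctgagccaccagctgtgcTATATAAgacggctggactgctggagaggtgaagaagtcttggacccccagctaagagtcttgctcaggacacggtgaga
Ltbp2: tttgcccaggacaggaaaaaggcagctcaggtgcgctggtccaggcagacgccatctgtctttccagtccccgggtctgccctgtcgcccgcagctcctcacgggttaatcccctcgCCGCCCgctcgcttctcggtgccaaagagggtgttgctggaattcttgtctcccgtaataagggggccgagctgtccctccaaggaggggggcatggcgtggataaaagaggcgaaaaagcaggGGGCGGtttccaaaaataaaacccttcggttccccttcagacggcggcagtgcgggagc
TATATAA was held by 3.24% and GGGCGG by 35.7% of the 32851 promoters of the table, both strands searched. Each was found in 1 of the 4 member promoters, and both were picked after the letters had been seen. The letters TGANTCA of an AP-1 site (7.81% of promoters), GGAATG of a TEAD site (14.7%) and TATAAA (13.6%) were in 0 of the 4 windows. Dcn and Lum lie on chromosome 10 with 0 annotated genes between them.

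Most members were called higher in late MKK3bE and in early HRas-v12 hearts, and fewer in early MKK3bE and late HRas-v12 hearts. Clec3b was called lower at the early time in both lines. Early MKK3bE had 2 arrays and larger standard errors, so fewer calls there do not mean smaller changes. No member passed a test between early HRas-v12 and early MKK3bE females, or between the MKK3bE times. A member was called at an adjusted p under 0.05 (limma, Benjamini-Hochberg over 12626 genes). In early HRas-v12 hearts 6 members rose and 1 fell, while 15.1% of all genes tested were called higher and 18.7% lower. In late HRas-v12 hearts 4 rose and 0 fell, against 4.86% and 4.66% of all genes. In early MKK3bE hearts 4 rose and 1 fell, against 3.48% and 2.78%. In late MKK3bE hearts 8 rose and 0 fell, against 5.06% and 5.39%. The median log2 change of the 10 members was 0.73 in early HRas-v12, 0.70 in late HRas-v12, 1.26 in early MKK3bE and 1.46 in late MKK3bE hearts. The median of all genes tested was -0.04, 0.02, -0.02 and -0.01 in the same comparisons. These 4 comparisons share their control arrays. Mfap4 is counted among the members that rose in each of the 4, and it passed the filter on dim probe sets only because other groups raised its mean. Against the MKK7D line's own controls 0 members were called at either time, where 0.0871% of all genes were called higher and 0.0475% lower early, and 0% and 0% late. At an unadjusted p under 0.05 the counts over all genes were 1346 early and 643 late.

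**Figure D1:**
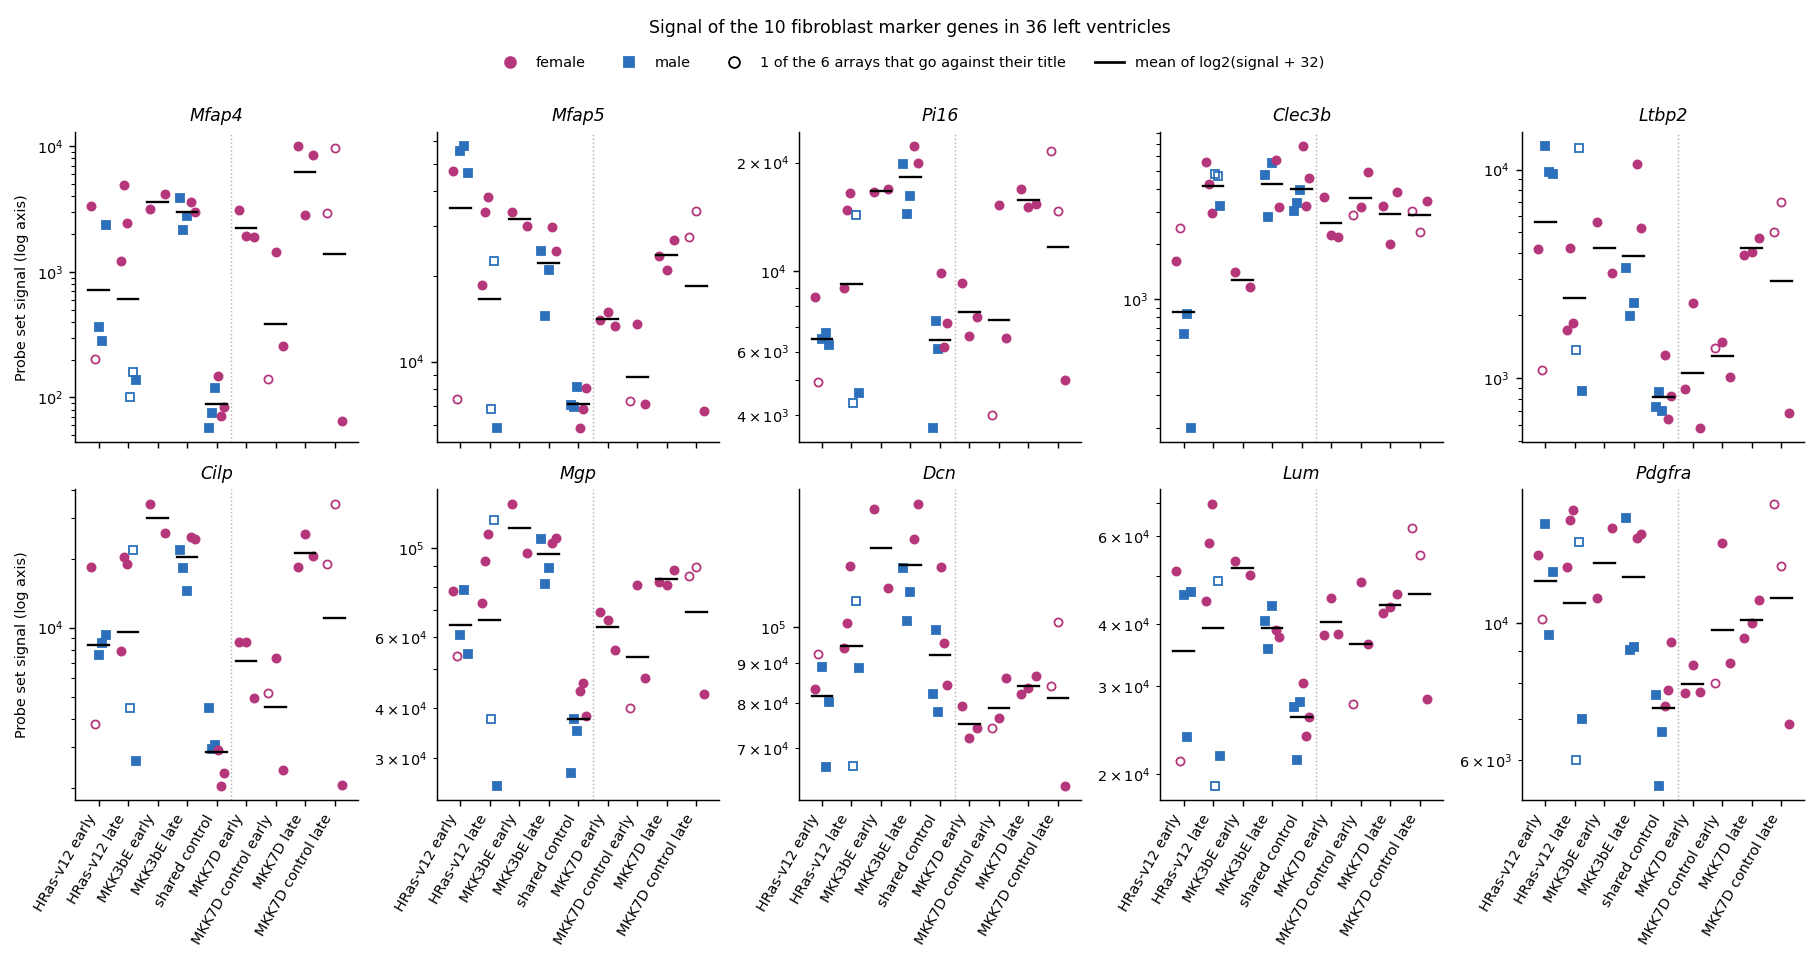
Probe set signal on a log axis for each member, with 1 point per array (circles female, squares male, open symbols the 6 arrays that do not match their title) and a bar at the mean of log2(signal + 32). HRas-v12 and MKK3bE hearts stand left of the shared controls, and each MKK7D group left of its own controls. All 7 MKK3bE arrays lie above every shared control for Mfap4, and Clec3b is low in the early HRas-v12 and MKK3bE hearts.

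Mfap4 encodes a microfibril-associated glycoprotein of the fibrinogen family that binds elastic fibres and collagen. In early HRas-v12 hearts its signal was 3371 and 204 in females and 361, 281 and 2364 in males. In late HRas-v12 hearts it was 1216, 4881 and 2443 in females and 102, 161 and 139 in males. The shared controls read 56.8 at the lowest, 79.4 at the median and 148 at the highest. All early HRas-v12 arrays were above every control, and of the late ones the 3 females and 1 male were. Mfap4 rose by a log2 change of 2.68 ± 0.81 (SE, limma adjusted p = 0.0117) early and 2.40 ± 0.76 (limma adjusted p = 0.0449) late. The early change was 1.72 (limma adjusted p = 0.19) without HRas-v12 female early replicate 1 and 3.64 without the 6 arrays. The late call was lost with no filter on dim probe sets (limma adjusted p = 0.060) and with a larger offset before the log (1.91, limma adjusted p = 0.0594).

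In MKK3bE hearts Mfap4 read 3143 and 4129.7 early, and late it read 3904, 2135 and 2760.1 in males and 3597 and 2988 in females. Every MKK3bE array lay above the highest control. The changes were 4.82 ± 1.20 early (limma adjusted p = 0.0163) and 4.68 ± 0.81 late (limma adjusted p = 0.000705). The shared control mean of Mfap4 was below the filter, a signal of about 414.3, so the gene was tested only because other groups raised its mean, and the size of its change depends on the offset of 32, so no fold is given for it. The other 9 members were above the filter in the shared controls too.

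Mfap5 encodes a small microfibril glycoprotein that binds fibrillin. It read 47217 and 7399 in female and 55269, 57527 and 46275 in male early HRas-v12 hearts. Late it read 18628, 33823 and 38075 in females and 6807, 22602 and 5848 in males. The shared controls had 5818, 6957 and 8115 as lowest, median and highest signal. The 4 early arrays other than female replicate 3 were above every control, and the 2 late males at 6807 and 5848 were within or at the edge of the control range. Mfap5 rose by 2.15 ± 0.39 early (limma adjusted p = 0.000228) and 1.23 ± 0.37 late (limma adjusted p = 0.0349). In MKK3bE hearts it read 33687 and 30234 early and between 14489 and 29904 late, all above the controls. The changes there were 2.22 ± 0.58 (limma adjusted p = 0.0207) and 1.70 ± 0.39 (limma adjusted p = 0.00612). A second Mfap5 probe set had log2 differences of 2.37 and 1.26 in early and late HRas-v12 hearts, and of 2.34 and 1.65 in early and late MKK3bE hearts.

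Ltbp2 encodes a latent TGF-beta binding protein family member that sits on microfibrils. Its signal was 4144 and 1097 in female and 12914, 9742 and 9477 in male early HRas-v12 hearts. Late it was 1708, 4226 and 1846 in females and 1365, 12668 and 870.0 in males, against 640.2, 777 and 1292 (lowest, median, highest) in the shared controls. The male early arrays were the highest of the early HRas-v12 arrays, and the highest late value came from male replicate 3, an array whose Esr1 signal was low. Ltbp2 rose by 2.50 ± 0.54 early (limma adjusted p = 0.0011). Late its change was 1.53 ± 0.51 (limma adjusted p = 0.0548), which did not pass. In MKK3bE hearts it read 5593 and 3185 early, and late it read 3392, 1978 and 2292 in males and 10606 and 5229 in females. All were above the controls, with an early change of 2.22 ± 0.81 that did not pass (limma adjusted p = 0.0966) and a late rise of 2.35 ± 0.54 (limma adjusted p = 0.00669). The late adjusted p was 0.055 without MKK3bE female late replicate 2.

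Cilp encodes a matrix protein of cartilage intermediate layer that fibroblasts secrete and that binds TGF-beta. It read 18387 and 3779.5 in female and 7583, 8584 and 9274 in male early HRas-v12 hearts. Late it read 7908, 20438 and 18895 in females and 4458, 21924 and 2622 in males. The shared controls read 2046, 2943 and 4469.7 as lowest, median and highest. Of the late males, only replicate 3 was above every control. Cilp rose by 1.54 ± 0.53 early (limma adjusted p = 0.0257) and 1.73 ± 0.50 late (limma adjusted p = 0.0309). The early change was 0.97 (limma adjusted p = 0.28) without HRas-v12 female early replicate 1, and the late change was 1.10 (limma adjusted p = 0.0588) without the 6 arrays.

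In MKK3bE hearts Cilp read 34835 and 25997 early, and 21793, 18181 and 14500.5 in males and 24867 and 24379 in females late. These 7 arrays were all above every control. The rises were 3.63 ± 0.79 early (limma adjusted p = 0.00749) and 2.86 ± 0.53 late (limma adjusted p = 0.00129).

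Mgp encodes matrix Gla protein, an inhibitor of calcification that vascular cells make as well as fibroblasts. It read 78329.6 and 53874 in female and 60723, 78396 and 54368 in male early HRas-v12 hearts. Late it read 73098, 93009 and 108428 in females and 37426, 117147 and 25599.5 in males, against 27465, 37751 and 46234 in the shared controls (lowest, median, highest). All early arrays were above every control, while the late males had the highest and the lowest value of the late arrays. Mgp rose by 0.78 ± 0.26 early (limma adjusted p = 0.0203) and 0.81 ± 0.24 late (limma adjusted p = 0.035). The late change was 0.49 (limma adjusted p = 0.133) without HRas-v12 male late replicate 3 and 0.36 (limma adjusted p = 0.268) without the 6 arrays. In MKK3bE hearts it read 129089.6 and 97192 early and 81429.5 to 105906 late, above every control. The rises were 1.39 ± 0.38 (limma adjusted p = 0.0277) and 1.38 ± 0.26 (limma adjusted p = 0.00133).

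The 2 small leucine-rich proteoglycans moved less. Dcn, decorin, was the brightest member, with 66279 to 92422 in early and 66387 to 119632 in late HRas-v12 hearts, against 78027 to 119408 in the shared controls. Its HRas-v12 changes of -0.16 ± 0.13 early and 0.04 ± 0.12 late did not pass, and the early sign turned with quantile normalization (0.13) and with the mean of its 2 probe sets (0.11). Dcn rose by 0.41 ± 0.13 in late MKK3bE hearts (limma adjusted p = 0.0342), where it read 101942 to 143981, overlapping the controls. That call was lost with no filter on dim probe sets (limma adjusted p = 0.0558) and with the mean of its probe sets (limma adjusted p = 0.0889). Lum, lumican, passed in 0 of the 4 comparisons. Its changes were 0.43 ± 0.24 in early and 0.59 ± 0.23 in late HRas-v12 hearts, and 0.96 ± 0.36 in early and 0.59 ± 0.24 in late MKK3bE hearts (limma adjusted p = 0.176, 0.0862, 0.103 and 0.114). All 7 MKK3bE arrays, at 35695 to 53489, were nevertheless above the 21351 to 30386 of the shared controls.

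Pi16 and Clec3b mark fibroblasts of the outer vessel wall and universal fibroblast states in mouse atlases. Pi16 encodes a secreted peptidase inhibitor family protein, and it read 4946 to 8520.4 in early HRas-v12 hearts against 3679.7 to 9875 in the shared controls. Its early HRas-v12 change was 0.01 ± 0.33. In late HRas-v12 hearts it read 8989, 14795 and 16466 in females and 4328, 14282 and 4603 in males, a change of 0.52 ± 0.31 that did not pass (limma adjusted p = 0.279). In MKK3bE hearts it read 16548 and 16917 early and 14440.0 to 22186 late, above every control. The late rise of 1.53 ± 0.33 passed (limma adjusted p = 0.00436), and the early change of 1.13 ± 0.49 did not (limma adjusted p = 0.164).

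Clec3b encodes tetranectin, a secreted C-type lectin that binds plasminogen. It read 1625 and 2436 in female and 645, 833 and 198 in male early HRas-v12 hearts, and 1403 and 1159.8 in early MKK3bE hearts. The shared controls read 3034, 3623 and 6795 as lowest, median and highest. All 7 early arrays were below every control. Clec3b fell by 1.98 ± 0.28 on the log2 scale in early HRas-v12 hearts (limma adjusted p = 3.05e-05) and changed by -1.84 ± 0.42 in early MKK3bE hearts (limma adjusted p = 0.0108). Late it read 2948 to 5557 in HRas-v12 and 2821 to 5744 in MKK3bE hearts, within or near the control range, with changes of 0.06 ± 0.27 and 0.09 ± 0.28. The late change exceeded the early one by 2.03 ± 0.28 in HRas-v12 hearts (limma adjusted p = 7.21e-05), the 1 member called in that test, in which 11.6% of all genes were called. In MKK3bE females the same difference was 1.72 ± 0.46 (limma adjusted p = 0.306). No member passed between the MKK3bE times, where 0.00792% of all genes did and 766 had an unadjusted p under 0.05. The shared controls have no time of their own, so the late to early difference compares transgenic hearts of both times.

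Pdgfra encodes the PDGF receptor alpha, which fibroblasts carry on their surface. It read 9556 to 14450.2 in early HRas-v12 hearts, all above the 5451 to 9305 of the shared controls, and rose by 0.68 ± 0.20 (limma adjusted p = 0.0103). Late HRas-v12 females read 12306, 14671 and 15269, and males 5993, 13520.1 and 6999, a change of 0.57 ± 0.19 that did not pass (limma adjusted p = 0.0546). In MKK3bE hearts it read 10984 and 14275 early, with a change of 0.63 ± 0.30 (limma adjusted p = 0.203). In late MKK3bE hearts it read 9052 to 14803 and rose by 0.74 ± 0.20 (limma adjusted p = 0.0183). Its other 2 probe sets had differences of the same sign in each of these comparisons.

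**Figure D2:**
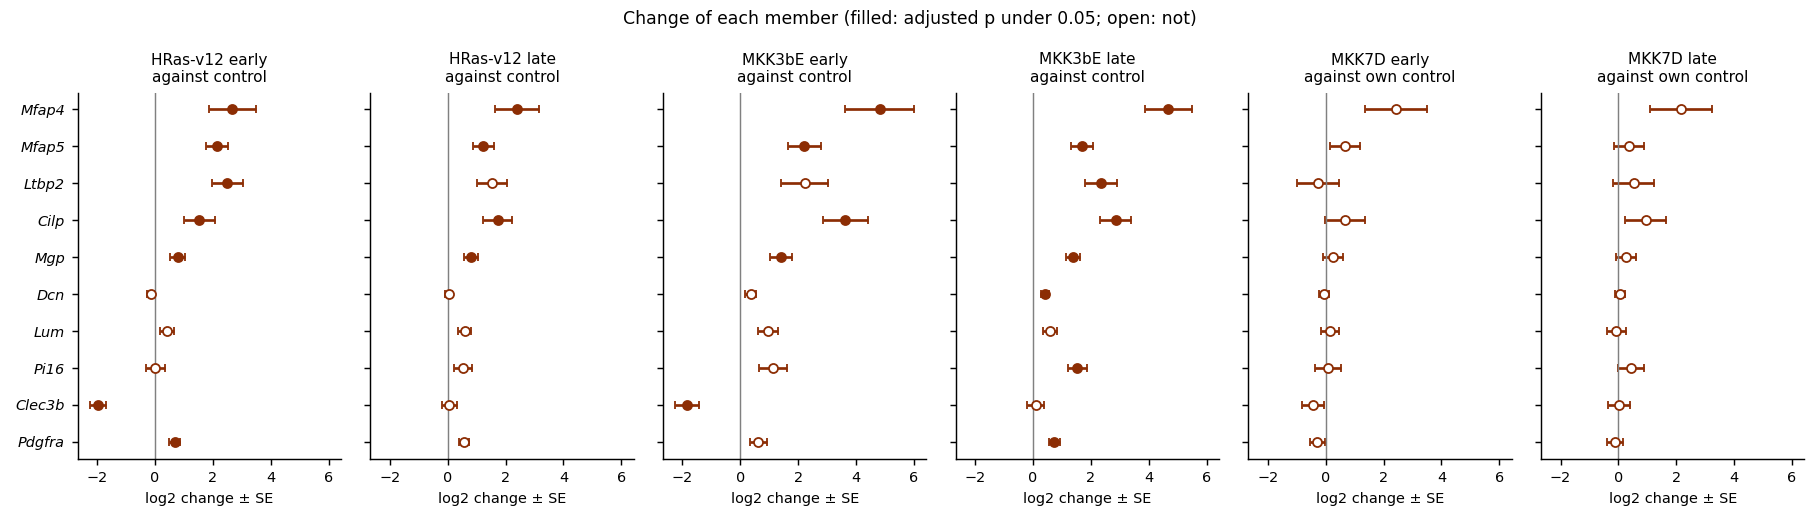
Log2 change ± SE of each member in 6 comparisons, each transgenic group against its control, with filled points where the limma adjusted p was under 0.05. Mfap4 has the largest change in each of the 6 panels, 4.82 in early MKK3bE hearts. Its size depends on the offset, as the shared control mean of Mfap4 was below the filter. Clec3b is the 1 member with a called fall.

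In MKK7D hearts Mfap4 read 3084, 1919 and 1895 early, against 139.8, 1443 and 254 in the early MKK7D controls. It read 9979, 2849 and 8589 late, against 2962, 9693 and 65.1 in the late MKK7D controls. The early arrays were all above their controls, and the late ones overlapped replicates 8 and 9. The changes of 2.44 ± 1.07 (limma adjusted p = 0.404) and 2.15 ± 1.07 (limma adjusted p = 0.99) did not pass. Cilp had the same shape, with 18338, 25632 and 20484 in late MKK7D hearts against 18885, 34520.4 and 2065 in their controls. Replicates 8 and 9 are the late controls with transgene-like Esr1 signals. The early control replicate 2 also had high Mfap4, Mfap5 (13578) and Pi16 (15257) with an Esr1 signal of 3506. Mfap5 read 14069, 14946 and 13338 in early MKK7D hearts against 7237, 13578 and 7064 in their controls, so that 2 of the 3 were above all controls. Late it read 23572, 20993 and 26931 against 27629.6, 34069 and 6680.2, and Ltbp2 read 3901, 4044 and 4699 against 5044, 6990.3 and 685. In both cases replicate 10 was the low control and replicates 8 and 9 were above all 3 MKK7D hearts. The same was so of Lum, at 42068, 43342 and 45994 in late MKK7D hearts against 62206, 55064 and 28262, and of Pdgfra, at 9474, 10005 and 10914 against 15624, 12360.5 and 6849. Pi16 read 16893, 15118 and 15364 against 21554, 14741 and 5017. Clec3b, which was low in the early hearts of the other lines, read 3583, 2243 and 2177 in early MKK7D hearts against 2867, 3162 and 4924, a change of -0.45 ± 0.38 with overlapping groups (limma adjusted p = 0.716). Over the other early members the changes lay between -0.29 (Pdgfra) and 0.67 (Mfap5 and Cilp), and over the other late ones between -0.12 (Pdgfra) and 0.94 (Cilp). Between the MKK7D times 0 members passed, where 0.0158% of all genes did and 673 had an unadjusted p under 0.05.

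Without the 6 arrays, 8 members were called in early HRas-v12 hearts (7 higher, 1 lower, 42.3% of all genes called in either direction). For late HRas-v12, 2 were called, Mfap4 (2.43) and Mfap5 (0.87), where 1.24% of all genes were. In early MKK3bE hearts 9 were called against 16.4% of all genes, and in late MKK3bE hearts 9 against 20.4%. None of the 6 arrays is an MKK3bE or shared control array, so the MKK3bE changes themselves were the same. Only the spread estimated over all groups, and with it the adjusted p, differed. In early MKK7D hearts 0 were called against 0.974%. In late MKK7D hearts 6 rose against 3.39% of all genes: Mfap4 by 6.02 ± 0.90 (limma adjusted p = 0.000800), Cilp by 3.34 ± 0.47, Ltbp2 by 2.56 ± 0.56, Mfap5 by 1.82 ± 0.33, Pi16 by 1.65 ± 0.37 and Mgp by 0.95 ± 0.25. That comparison then rests on 1 control array, replicate 10, which is assumed to vary like the other groups. Mfap4 read 65.1 on replicate 10, below the filter of about 414.3, and was tested only because other groups raised its mean. The size of its change there depends on the offset of 32. Its adjusted p and its place among the 6 can therefore not be relied on. With the shared control females in place of the late MKK7D controls, Mfap4 (5.61), Cilp (3.13), Ltbp2 (2.21) and Mfap5 (1.79) were called. Those females are controls of the other lines and carry no time in their titles. Their Mfap4 mean was below the filter too, so the same limit holds for the Mfap4 call there. The share of all genes called in that comparison is not given here.

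**Figure D3:**
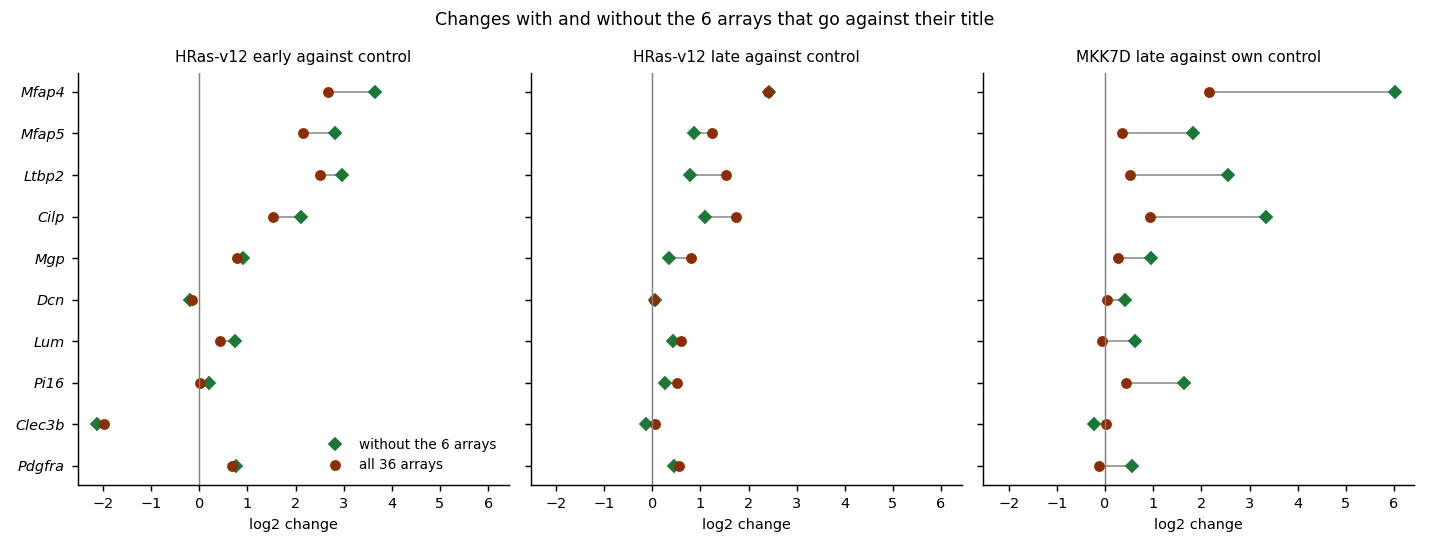
Log2 change of each member with all 36 arrays (circles) and without the 6 arrays that do not match their title (diamonds), for 3 comparisons. The diamonds lie further from 0 for Mfap4 in early HRas-v12 (3.64) and late MKK7D hearts (6.02), and nearer to 0 for Ltbp2 and Cilp in late HRas-v12 hearts.

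The number of members called against the shared controls depended on single arrays. The share of all genes called in each such fit is not given here, so the counts cannot be read as particular to the members. The 4 calls of late HRas-v12 hearts became 0 without control male replicate 1 or 5, control female replicate 1, HRas-v12 female late replicate 3 or 4, or HRas-v12 male late replicate 3. They became 1 without control male replicate 2 or control female replicate 2 or 4, and 7 without HRas-v12 male late replicate 1 or 4. In early MKK3bE hearts the 5 calls became 0 without either MKK3bE female early array, and 2 without control female replicate 1 or 4. In early HRas-v12 hearts the 7 calls became 3 without HRas-v12 female early replicate 1, and in late MKK3bE hearts the 8 became 5 without MKK3bE female late replicate 2.

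Differences between the lines were tested as differences of the changes. In early females 0 members passed between HRas-v12 and MKK3bE (1.81% of all genes called, 1774 at an unadjusted p under 0.05). Likewise 0 passed between HRas-v12 and MKK7D (0% called, 1264 at an unadjusted p under 0.05), and 0 between MKK3bE and MKK7D (0.0713%, 1205). In late hearts 0 members passed between HRas-v12 and MKK3bE (3.95%, 2245). There the change of Mfap4 in HRas-v12 hearts minus that in MKK3bE hearts was -2.28 ± 0.81 (limma adjusted p = 0.114), and that of Pi16 was -1.01 ± 0.33 (limma adjusted p = 0.0833). Without the 6 arrays Mfap4, Mfap5, Pi16, Ltbp2, Cilp and Mgp were all lower in late HRas-v12 than in late MKK3bE hearts, where 6.45% of all genes were called, and Mgp differed by -1.02 ± 0.16. The male part of the late HRas-v12 change then rests on 1 array, male replicate 4, whose values for these members were low, and the other groups supply its spread.

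Without the 6 arrays the late HRas-v12 change was also below the early one for Mfap5 (-1.94 ± 0.23), Ltbp2 (-2.18 ± 0.39), Cilp (-1.01 ± 0.33) and Mgp (-0.55 ± 0.18), beside the rise of Clec3b (1.99 ± 0.39), where 26.1% of all genes were called. These 4 falls were not called with all arrays. Late males and early females of the line are then 1 array each, with equal weight to the other sex, and the other groups supply their spread.

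The sexes were compared as differences of changes. No member passed in early HRas-v12 (1.1% of all genes, 2376 at an unadjusted p under 0.05), late HRas-v12 (0%, 988) or late MKK3bE hearts (0.00792%, 587). In late HRas-v12 hearts the male minus the female change of Mfap4 was -3.72 ± 1.52 (limma adjusted p = 0.56). Male replicate 4 had an Esr1 signal of 155949, yet its Mfap4, Mfap5 and Cilp signals were 139, 5848 and 2622. Without the 6 arrays, in which males rest on that 1 array, 4 members were lower in late males: Mfap5, Cilp, Mgp and Lum (3.77% of all genes called). The spread of that array is assumed from the other groups, and male late replicates have no spread of their own there. In early HRas-v12 hearts Ltbp2 had a male minus female difference of 2.50 ± 1.09 (limma adjusted p = 0.21).

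Over the 13 group means, members were unevenly alike. Pearson's r was highest for Cilp and Mgp (0.947), followed by Mfap4 and Mgp (0.921), and lowest for Mfap5 and Clec3b (-0.641). Clec3b had a negative r with 7 of the other 9 members. The group means share the control arrays and the same 13 groups, so these values are descriptions. Among all genes tested, the one most like each member was Mgp for Mfap4 (0.921), Lpar1 for Mfap5 (0.983), Medag for Ltbp2 (0.952), Svep1 for Cilp (0.962), Cilp for Mgp (0.947), Icam1 for Dcn (0.936), Crispld1 for Lum (0.904), Ldlrad3 for Pi16 (0.920), Rapgef5 for Clec3b (0.944) and Thsd4 for Pdgfra (0.918).

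**Figure D4:**
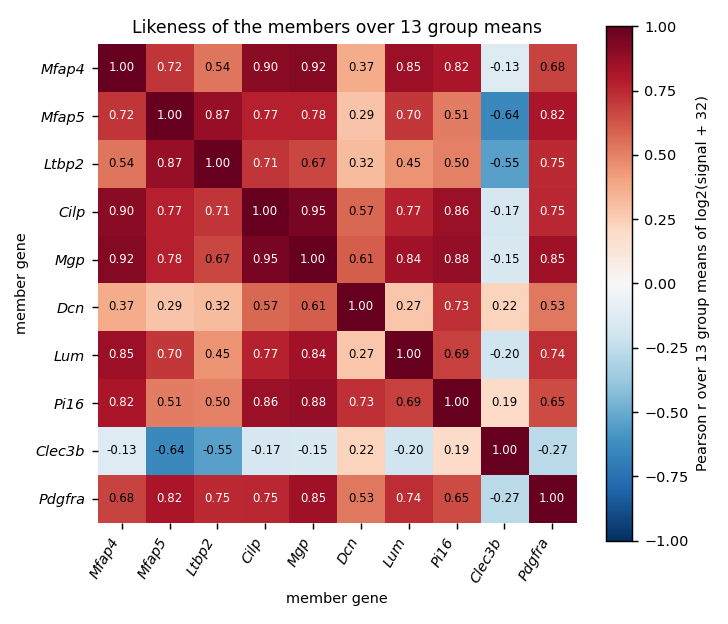
Pearson's r of each pair of members over the 13 group means of log2(signal + 32), red positive and blue negative. Cilp and Mgp are the most alike pair (0.95), and the row of Clec3b is the one that holds negative values.

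The order of the levels differed between members. On the log2(signal + 32) scale Mfap4 was highest in late MKK7D females (12.62) and lowest in control males (6.82). The gaps to the neighbouring groups, 0.79 and 0.20, were within the larger SD of each pair (0.98 and 0.42). Mfap5 was highest in early HRas-v12 males (15.69), above the next group by 0.73, more than the larger SD of the pair. Clec3b was lowest in early HRas-v12 males (9.00), early MKK3bE females (10.35) and early HRas-v12 females (10.98). Dcn, from 17.06 in late MKK3bE females to 16.20 in early MKK7D females, had no neighbouring groups that differed by more than the larger SD of the pair.

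Further matrix and fibroblast genes were counted from lists. Of all genes tested, 15.1% were called higher and 18.7% lower in early HRas-v12 hearts, and 4.86% and 4.66% in late ones. In early MKK3bE hearts the shares were 3.48% and 2.78%, and in late ones 5.06% and 5.39%. Of 14 microfibril and elastic fibre genes tested, 6 rose and 2 fell in early HRas-v12, 3 and 0 in late HRas-v12, 2 and 2 in early MKK3bE, and 7 and 1 in late MKK3bE hearts. Loxl1, an enzyme that cross-links elastin, rose by 1.34 ± 0.26 in early HRas-v12 hearts, where Fbln1 and Efemp1 of the fibulin family fell by 1.09 ± 0.19 and 1.67 ± 0.34. Mfap2, a fibrillin-binding glycoprotein, rose by 1.72 ± 0.46 in early MKK3bE and by 1.43 ± 0.29 in late HRas-v12 hearts. In late MKK3bE hearts Fbln2 rose by 1.33 ± 0.29. The list's median log2 change was 0.36, 0.49, 0.48 and 0.70 in the 4 comparisons.

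Of 7 small leucine-rich proteoglycans beside Dcn and Lum, 2 rose and 2 fell in early HRas-v12, 3 and 0 in late HRas-v12, 1 and 0 in early MKK3bE and 5 and 0 in late MKK3bE hearts. The shares of all genes called in these 4 comparisons, given with the microfibril list, hold for each list here. Biglycan (Bgn), a close relative of decorin, rose in each of the 4, by 0.74 ± 0.20, 0.61 ± 0.19, 1.10 ± 0.31 and 1.02 ± 0.20. Ogn (-0.61 ± 0.15) and Podn (-0.51 ± 0.16) fell in early HRas-v12 hearts. Of 15 further resident fibroblast markers, 5 rose and 4 fell in early HRas-v12 hearts, 5 and 0 late, 2 and 0 in early MKK3bE and 6 and 0 in late MKK3bE hearts. In early HRas-v12 hearts Gsn (gelsolin) fell by 1.13 ± 0.13 and Scara5, a ferritin receptor, by 1.67 ± 0.22. They are named for their small adjusted p, although more of the list rose than fell. In late against early HRas-v12 hearts 7 of the 15 were higher and 0 lower, where 11.6% of all genes were called in either direction. Gsn was higher by 1.07 ± 0.13, while the list's median difference was -0.03. With the 6 arrays left out, fewer of the list were higher and some were lower. Early females and late males of the line are then 1 array each. Of 16 activated fibroblast genes, 10, 8, 7 and 5 rose in the 4 comparisons, and 0, 0, 0 and 1 fell. Tnc, the matricellular protein tenascin C, rose by 5.02 ± 0.69 in early HRas-v12 hearts, and Postn, periostin, by 3.29 ± 0.81 in early MKK3bE hearts. The median log2 changes in early and late HRas-v12 and early and late MKK3bE hearts were 0.50, 0.63, 0.72 and 1.02 for the proteoglycans. They were 0.07, 0.38, 0.32 and 0.45 for the resident markers, and 1.55, 1.03, 1.60 and 0.82 for the activated genes. Of 5 PDGF ligand and receptor genes, 3 rose and 2 fell in early HRas-v12, 1 and 0 in late HRas-v12, 0 and 0 in early MKK3bE and 1 and 1 in late MKK3bE hearts. The PDGF ligand gene Pdgfc rose by 1.65 ± 0.34 in early and 1.41 ± 0.32 in late HRas-v12 hearts. Without the 6 arrays, fewer genes of each list were called higher in late HRas-v12 hearts, and the late call of Pdgfc was lost. Fewer of all genes were called there too, and late males then rest on 1 array. In MKK7D hearts 0 genes of these lists passed at either time with all arrays. There 0.0871% of all genes were called higher and 0.0475% lower early, and 0% late. Without the 6 arrays the late MKK7D comparison rests on 1 control array, so no list counts are given for it.

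Markers of other cell types were also called in early HRas-v12 hearts, in differing directions. Of all genes tested, 15.1% were called higher and 18.7% lower there. Macrophage markers rose in 7 of 10 (Cd68 by 1.29 ± 0.31), with summed signals of 59681 to 234741 against 63973 to 93806 in the shared controls. Endothelial markers fell in 9 of 11, summing to 48040 to 95669 against 76080 to 109440. Cardiomyocyte markers fell in 8 of 8, summing to 801157 to 1167331 against 1230974 to 1653263. Of 8 mural markers 2 rose and 4 fell, summing to 77130 to 132102 against 121381 to 183340. Late HRas-v12 hearts had other counts: 6 of 8 cardiomyocyte markers and 2 of 11 endothelial markers fell, 1 of 10 macrophage markers rose, and of 8 mural markers 1 rose and 1 fell. There 4.86% of all genes were called higher and 4.66% lower. With the 6 arrays left out, the cardiomyocyte, endothelial and macrophage calls were lost there. Fewer of all genes were called too, and late males then rest on 1 array. In MKK3bE hearts the calls were 1 endothelial and 1 mural fall early and 3 mural falls late, with macrophage sums of 91939 to 141107 late. Of all genes, 2.78% were called lower early and 5.39% late. With the 6 arrays left out, the MKK3bE changes were the same, as none of the 6 belongs to these comparisons, and only the estimated spread differed. In early MKK3bE hearts 3 endothelial, 3 mural and 3 cardiomyocyte markers were then called lower, where 16.4% of all genes were called in either direction. In late MKK3bE hearts 20.4% of all genes were then called. There 6 of 10 macrophage markers were called higher and 3 of 8 cardiomyocyte markers lower. Of the mural markers 1 was called higher and 3 lower, and of the endothelial markers 1 higher and 1 lower. In early HRas-v12 hearts macrophage markers then still rose, and endothelial and cardiomyocyte markers still fell, while more of all genes were called. Early females of that line are then 1 array. Adipocyte markers (3 tested) had 0 calls in either direction, and mesothelial (4) and Schwann (3) markers had at most 1 fall. No tested marker of these lists was at 0 on any array. Their part in the members' changes was not tested.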

How the data were processed

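The deposited values are probe set signals, an intensity on a linear scale, which the authors computed by MAS5, as the submitters' processing notes name it. Of MAS5, the version was not given in the sources used here. With 2% cut at each end, the mean signal was 2500.01 on each array. They were not rescaled here, and log2(signal + 32) was used, so fold changes of dim genes are understated. Of 45101 probe sets, those in the upper 60% by mean value were kept (27022), and the brightest per gene gave 12626 genes. Groups came from the array titles. With limma 3.58.1 (R 4.3.3), 13 group means were estimated from the 36 arrays, eBayes used an intensity trend, and 16 comparisons were tested with Benjamini-Hochberg adjustment, called under 0.05. Changes in groups with both sexes average the difference seen in females with that seen in males, and early MKK3bE uses females only. The titles number replicates without naming animals, so the p-values reflect the spread of single arrays, which may be technical, and precision is limited by how many there are. The fit was tested on simulated data. The 10 members and the gene lists were chosen with earlier results of these data known. Named genes are the members, for each the most alike gene tested, and up to 3 called genes with the smallest adjusted p per list and comparison. Alternatives covered the offset (smaller and larger), quantile normalization, the filter, the probe set per gene, the arrays in the fit, the replicate block and each array left out. Leaving out the 6 arrays that do not match their titles, and the shared control females for MKK7D, were added after seeing the data.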

Additional observations from a re-analysis of the deposited data

Results flagged for a closer look

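Mfap5 in HRas-v12 female early replicate 3 stood far below the other 4 early HRas-v12 arrays, at a signal of 7399, with a gap to its nearest neighbour of 0.894 of the range of the group. This array also had an Esr1 signal of 688. Of 40 such tests over members and groups 1 gave a hit, and chance gives about 1 in 20 groups. Clec3b changed differently at the 2 times in HRas-v12 hearts, late minus early by 2.03 on the log2 scale (limma adjusted p = 7.21e-05).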

How the results depend on the processing

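Counts of members called depended on the processing in the comparisons named here, and the cause was not tested. Shares of all genes called under these settings are not given in this section, so the counts cannot be read as particular to the members. The offset, quantile normalization (which moved the median of all genes by -0.035 to 0.015), the filter and the mean of probe sets kept each count within 1.5 times. With only the groups compared, the counts were 0 in late HRas-v12 hearts, 8 in early MKK3bE hearts, 2 for MKK3bE against MKK7D early and 1 for HRas-v12 against MKK3bE late. Deviations of same-numbered arrays from their group means correlated at -0.057 to 0.0738. With groups of 2 or 3 arrays this cannot settle whether replicate numbers pair the arrays. The replicate block gave 4 in early HRas-v12, 0 in late HRas-v12, 2 in early MKK3bE and 3 in late MKK3bE hearts. With the 6 arrays in doubt left out, the counts were 2 in late HRas-v12, 9 in early MKK3bE and 6 in late MKK7D hearts, 5 for HRas-v12 late against early, 2 for HRas-v12 and 3 for MKK3bE against MKK7D early, 6 for HRas-v12 against MKK3bE late and 4 for the late HRas-v12 sexes. The MKK3bE changes against the shared controls were the same without the 6 arrays, and only their estimated spread differed. With shared control females, 1 was called in early and 4 in late MKK7D hearts. Leaving out 1 array gave 3 to 8 in early HRas-v12, 0 to 7 in late HRas-v12, 0 to 4 in early MKK3bE, 5 to 8 in late MKK3bE hearts, 1 to 3 for HRas-v12 late against early, 0 to 3 for HRas-v12 against MKK3bE late and 0 to 1 for the early HRas-v12 sexes. The log2 changes that turned sign were not called. With quantile normalization these were Pi16 (-0.0089) and Dcn (0.13) in early HRas-v12 and Dcn (0.0019) in early MKK7D hearts, with the mean of probe sets Dcn in early HRas-v12 (0.11), and with the replicate block Dcn in late HRas-v12 hearts (-0.093). The 6 arrays left out, these were Clec3b in late HRas-v12 (-0.13), Pi16 (-0.37) and Lum (-0.061) in early MKK7D, and Clec3b (-0.23), Lum (0.63) and Pdgfra (0.56) in late MKK7D hearts. With shared control females these were Ltbp2 early (0.26), and Clec3b (-0.66), Dcn (-0.23), Lum (0.72) and Pdgfra (0.32) late. Leaving out 1 array, values ranged in early HRas-v12 hearts from -0.19 to 0.20 (Pi16), in late HRas-v12 from -0.075 to 0.19 (Clec3b) and -0.042 to 0.13 (Dcn), and in late MKK3bE from -0.13 to 0.30 (Clec3b). In early MKK7D hearts they ranged from -0.81 to 0.15 (Ltbp2), -0.061 to 0.35 (Lum) and -0.37 to 0.60 (Pi16). In late MKK7D hearts they ranged from -0.26 to 1.76 (Cilp), -0.18 to 0.28 (Clec3b), -0.14 to 0.21 (Dcn), -0.50 to 1.15 (Ltbp2), -0.42 to 0.15 (Lum), -0.37 to 0.80 (Mfap5), -0.064 to 0.46 (Mgp), -0.46 to 0.14 (Pdgfra) and -0.18 to 0.87 (Pi16). Mfap4 signals in the shared controls were below the filter, which limits how well the size of its change is known.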
